A study of Mus musculus with 8 samples.

Results

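The 34 genes described here encode chaperones, folding enzymes, translocation and degradation proteins of the endoplasmic reticulum (ER) together with the sensors and transcription factors of the unfolded protein response. They were chosen by gene symbol, and each gene was read from its brightest probe set, a group of oligonucleotides on the array that detects the transcript of a gene. All 34 were measured, out of 12662 genes with a usable probe set. The question put to them was whether the secretory machinery of the uterus was higher along with the immunoglobulin transcripts of the cyclooxygenase-1 knockout (Cox-1 KO) mouse.

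RNA came from the gravid uterus at gestational day 18 of mice, 4 of them wild-type and 4 Cox-1 KO, and each mouse was hybridized to its own Affymetrix mouse 430 2.0 array. Wild-type mice were C57BL/6. Cox-1 KO mice lacked Ptgs1, the gene of the prostaglandin synthase Cox-1, and were C57BL/6 crossed with Sv129 in the labels and with 129P2 in the methods, so that strain and the deleted gene cannot be told apart. All were females aged 6 to 16 weeks by the labels, the fetuses, fetal membranes and placentas had been removed, and the labels give no treatment for either group. Cox-1 KO mice deliver late, so that the same gestational day lies further from labor in them. The array read the whole uterine wall, in which fewer cells of a type and less RNA per cell cannot be told apart.

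The ER is where secreted and membrane proteins enter the secretory pathway, fold, form disulfide bonds and receive their glycans. When unfolded protein builds up there, the sensors ATF6, IRE1 (Ern1) and PERK (Eif2ak3) raise the transcription of chaperones and degradation factors and lower protein synthesis. Plasma cells, which secrete antibody, carry an expanded ER, and the chaperone BiP (Hspa5) was first known as a protein bound to immunoglobulin heavy chains. In the pregnant uterus, glands and decidual cells are secretory as well.

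Many of these genes share a short promoter sequence, the ER stress response element (ERSE), which is CCAAT followed by 9 bases and CCACG and is bound by ATF6 with NF-Y. RefSeq promoters of build GRCm38.p6, running from 250 bases before to 50 bases after the annotated start, were at hand for 28 of the 34 genes. The ERSE was found on either strand in 8 of the 28 (28.6%), against 37 of 27025 genes with a promoter (0.137%). These 8 were Hspa5, Hsp90b1, Pdia6, Calr, Canx, Dnajc3, Creld2 and Syvn1. The variant ERSE-II, ATTGG followed by 1 base and CCACG, was found in Herpud1 and Dnajb11 (7.14%, against 0.0444% of all genes), and the ATF4 element TGATGCAA in Herpud1 (3.57%, against 1.03%). A match is a description of the letters in this window, and the search was chosen after the signals had been seen. The windows below, read 5′ to 3′ on the strand of the gene with the motif in capitals, are shown because they are the element that sets of these genes have in common. Hspa5 lies at chr2:34772010-34772058 (plus strand), Hsp90b1 at chr10:86705623-86705671 (minus strand), Pdia6 at chr12:17266476-17266524 (plus strand), Creld2 at chr15:88819505-88819553 (plus strand) and Herpud1 at chr8:94386362-94386402 (plus strand), and all lie upstream of the start. Creld2 holds the element on the opposite strand, so that it reads CGTGG, 9 bases, ATTGG.
Hspa5 ERSE: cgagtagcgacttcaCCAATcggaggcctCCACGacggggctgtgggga
Hsp90b1 ERSE: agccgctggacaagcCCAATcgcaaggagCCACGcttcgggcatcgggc
Pdia6 ERSE: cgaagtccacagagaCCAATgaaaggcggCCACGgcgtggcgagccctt
Creld2 ERSE: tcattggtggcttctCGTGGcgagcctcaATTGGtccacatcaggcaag
Herpud1 ERSE-II: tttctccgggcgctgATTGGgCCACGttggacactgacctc

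The element of Hspa5 ran from 65 to 47 bases before the start, and Hsp90b1 held a second ERSE on the opposite strand, from 107 to 89 bases before its start. The ERSE-II of Dnajb11 was the only element of these kinds in the 28 promoters that lay after the start.

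**Figure D1:**
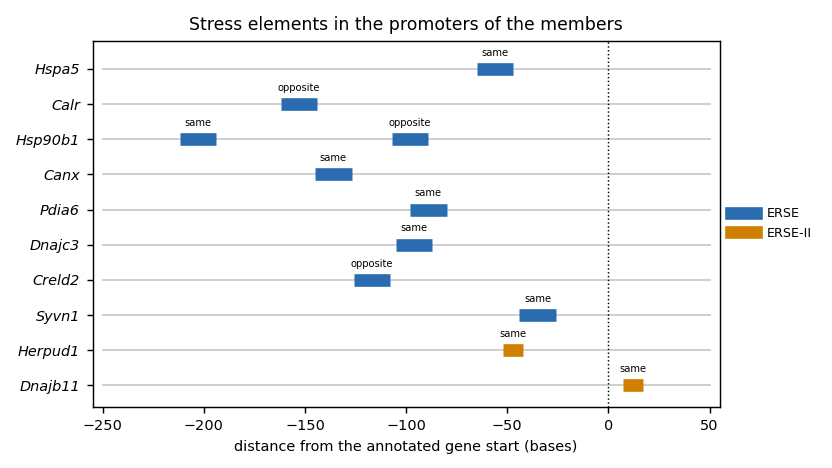
Position of each ERSE (blue) and ERSE-II (orange) in the promoter windows of the 10 genes that hold either, in bases from the annotated gene start (dotted line); "same" and "opposite" give the strand relative to the gene. The elements lie between 212 and 26 bases before the start in all but Dnajb11.

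Signals are the authors' MAS5 values on a linear scale with every array scaled to the same target, and differences are log2 signal in Cox-1 KO minus wild-type from limma, with Benjamini-Hochberg adjustment over 26444 probe sets. Ptgs1 was 7048, 10610, 10756 and 10508 on the wild-type arrays and 88, 122, 76 and 136 on the Cox-1 KO arrays (limma adjusted p = 5.66e-08). The uterine genes Hoxa10 (5322 to 8389) and Hoxa11 (3709 to 5500) were measured on every array. Transcripts of yolk sac and fetal liver set 4 arrays apart from the rest. Apoa1, an apolipoprotein of these tissues, was 342, 615, 842 and 50275 in wild-type and 69038, 796, 58425 and 51184 in Cox-1 KO. The summed signal of the 15 measured genes of this list ran from 32334 to 290634 in wild-type and from 44219 to 452298 in Cox-1 KO. Wild-type replicate 1 stood apart in another way. It had a summed signal of 224790 over the 15 genes of uterine epithelium and glands, against 303686 to 340871 on the other 7 arrays, and of 24587 over 9 genes of trophoblast and decidua, against 40839 to 62837.

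An adjusted p under 0.05 was reached by 0 of the 34 genes, which 1 of the 12662 genes tested by limma did (0.00790%), and the smallest adjusted p among the 34 was 0.147, for Dnajb11. At an unadjusted p under 0.05, 3 of the 34 were lower in Cox-1 KO (8.82%, against 4.37% of all genes) and 0 were higher (against 4.83% of all genes). With the methods' t-test and their fold threshold of 1.5, 0 of the 34 passed (against 0.679% of all genes), 3 passed its p alone (8.82%, against 5.92% of all genes) and 0 passed after Benjamini-Hochberg adjustment (against 0.00% of all genes). The ratio of mean signals ran from 0.677, for Dnajb11, to 1.11, so that Dnajb11 fell just short of the fold threshold. The median difference of the 34 was -0.05 on the log2 scale, beside -0.01 over all genes, and 26 genes (76.5%) were lower in Cox-1 KO, beside 52.7% of all genes. All 4 Cox-1 KO arrays lay below all 4 wild-type arrays for 2 of the 34 (Dnajb11 and Manf), which 2.50% of all genes did, and above them for 1 (Trib3), which 1.84% of all genes did.

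The intervals bound how large an increase these arrays leave room for in RNA of the whole uterus. A change within the cells that make immunoglobulin was not measured apart from the rest. The upper end of the 95% interval was under a 1.5-fold increase for all 34 genes, and so it was for 10950 of the 12662 genes tested. The highest upper end among the 34, of Trib3, was 1.32-fold. Jchain, which links IgA or IgM units into polymers, was 5012, 889, 2058 and 1302 in wild-type and 12540, 13542, 13466 and 14475 in Cox-1 KO. Every Cox-1 KO array exceeded every wild-type array, with a log2 difference of 2.86 (95% interval 1.98 to 3.74, limma adjusted p = 0.0517). The limma adjusted p of Jchain was 1.12e-04 without wild-type replicate 1. With any other single array left out it was 0.0689 to 0.199. Igha, the heavy chain constant region of IgA, was 23896, 6517, 13407 and 8457 in wild-type and 41215, 40550, 41919 and 45238 in Cox-1 KO. Again the groups did not overlap, with a difference of 1.87 (1.20 to 2.55, limma adjusted p = 0.0970). The limma adjusted p of Igha was 9.51e-04 without wild-type replicate 1. With any other single array left out it was 0.0938 to 0.287. Mzb1, a plasma cell chaperone of the ER that helps to assemble antibody, was 255, 196, 221 and 206 against 490, 815, 700 and 534. It rose by 1.51 on the log2 scale (1.11 to 1.90, limma adjusted p = 0.0356), a call that ended when Cox-1 KO replicate 3 or any of wild-type replicates 2, 3 and 4 was left out (adjusted p = 0.0910 to 0.162). Other settings that ended it were a fit without the trend (0.169), a replicate block (0.0769), averaging the probe sets of each gene (0.0800) and the methods' t-test (0.765). The lower end of each of these 3 intervals lay above the upper end of the interval of each of the 34 genes. So did that of Iglv1 (2.42 to 4.99) and Pou2af1 (0.87 to 2.54). Other immunoglobulin and plasma cell genes had intervals that overlapped those of the 34, among them Ighm (-0.09 to 0.53), Ighg3 (-0.44 to 0.44), Irf4 (-0.25 to 1.84) and Sdc1 (-0.28 to 0.26).

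**Figure D2:**
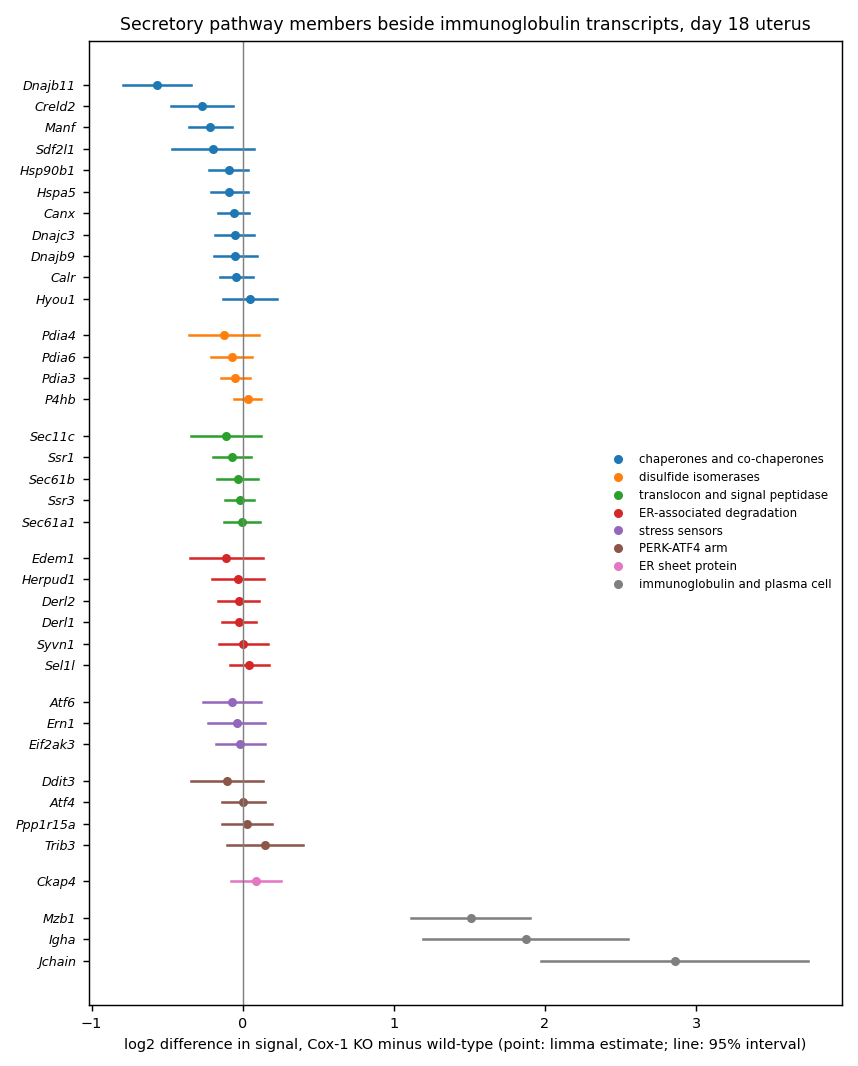
Log2 difference in signal, Cox-1 KO minus wild-type, for each of the 34 genes by role and for Mzb1, Igha and Jchain (point, limma estimate; line, 95% interval; 4 arrays a group). The 34 genes lie between -0.57 and 0.15, and Mzb1, Igha and Jchain lie at 1.51, 1.87 and 2.86. Other immunoglobulin and plasma cell genes, some of them nearer to the 34, are not drawn.

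Of the 11 chaperones and co-chaperones, 10 were lower in Cox-1 KO (90.9%, beside 52.7% of all genes), with a median difference of -0.09. The 3 genes with an unadjusted p under 0.05 were all counted here (27.3%, against 4.37% of all genes). That count depends on the sorting by role, since Creld2, placed here, also has disulfide isomerase activity. Dnajb11 (ERdj3) is a J-domain co-chaperone that delivers unfolded proteins to BiP. Its signal was 3233, 3239, 2703 and 2796 in wild-type and 2371, 2087, 1837 and 1806 in Cox-1 KO, or 2993 ± 283 and 2025 ± 263 (SD, n = 4 each). All 4 Cox-1 KO arrays lay below all 4 wild-type arrays. The log2 difference was -0.57 (standard error 0.102, 95% interval -0.79 to -0.34, limma unadjusted p = 1.73e-04, adjusted p = 0.147). A single probe set of this gene was among the deposited values.

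Manf, a small protein of the ER lumen that binds BiP and is secreted under stress, had signals of 20145, 17279, 16928 and 16936 in wild-type and of 14320, 15348, 15891 and 15746 in Cox-1 KO. The groups did not overlap, and wild-type replicate 1 stood above the other wild-type arrays. The difference was -0.21 (standard error 0.0649, limma adjusted p = 0.482), and without wild-type replicate 1 it was -0.15. Creld2, an ER protein with disulfide isomerase activity that is induced by ER stress, was 4343, 3669, 4111 and 3200 in wild-type and 3265, 3297, 3147 and 2957 in Cox-1 KO. Wild-type replicate 4 lay within the Cox-1 KO range and the other wild-type arrays lay above it. The difference was -0.27 (standard error 0.0932, limma adjusted p = 0.526), and it was -0.15 in a fit that held the yolk sac list of each array as a covariate (unadjusted p = 0.135). The same covariate left Dnajb11 at -0.52 (unadjusted p = 0.00110, adjusted p = 0.397) and Manf at -0.18 (unadjusted p = 0.0381).

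Hspa5, which encodes BiP, the Hsp70 chaperone of the ER, had signals of 28043, 28724, 27004 and 24971 in wild-type and of 27202, 25624, 25086 and 24344 in Cox-1 KO. The groups overlapped, the difference was -0.09 (95% interval -0.21 to 0.03, limma adjusted p = 0.664), and the interval allows an increase of up to 2.40%. The other probe sets of Hspa5 gave -0.06 and -0.12. Hsp90b1 (GRP94), the Hsp90 chaperone of the ER, was 19771, 16649, 18895 and 17500 in wild-type and 17338, 17490, 16259 and 17028 in Cox-1 KO. These overlapped too, with a difference of -0.09 (limma adjusted p = 0.665). A somewhat dimmer probe set of the gene gave -0.19 (limma unadjusted p = 0.0110, adjusted p = 0.518). There the groups did not overlap, at 15312 to 16823 in wild-type and 12601 to 15308 in Cox-1 KO.

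Sdf2l1, which works in a complex with Dnajb11, was 2104, 1905, 1559 and 1664 in wild-type and 1304, 1777, 1752 and 1497 in Cox-1 KO, with overlapping groups and a difference of -0.19 (standard error 0.124). Canx (calnexin), the membrane lectin that holds folding glycoproteins, was 17058, 15496, 16856 and 15998 in wild-type and 15345, 15796, 15633 and 15925 in Cox-1 KO, a difference of -0.06 (standard error 0.0474). Its soluble relative Calr (calreticulin) differed by -0.04, and the J-domain co-chaperones Dnajb9 and Dnajc3 by -0.05 each. Hyou1 (GRP170), which exchanges nucleotide on BiP, was the only chaperone of the 11 that was higher, by 0.05. Its dimmest probe set went the other way, with -0.51 (unadjusted p = 0.0296), at signals of 271 to 337 in wild-type and 160 to 302 in Cox-1 KO.

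**Figure D3:**
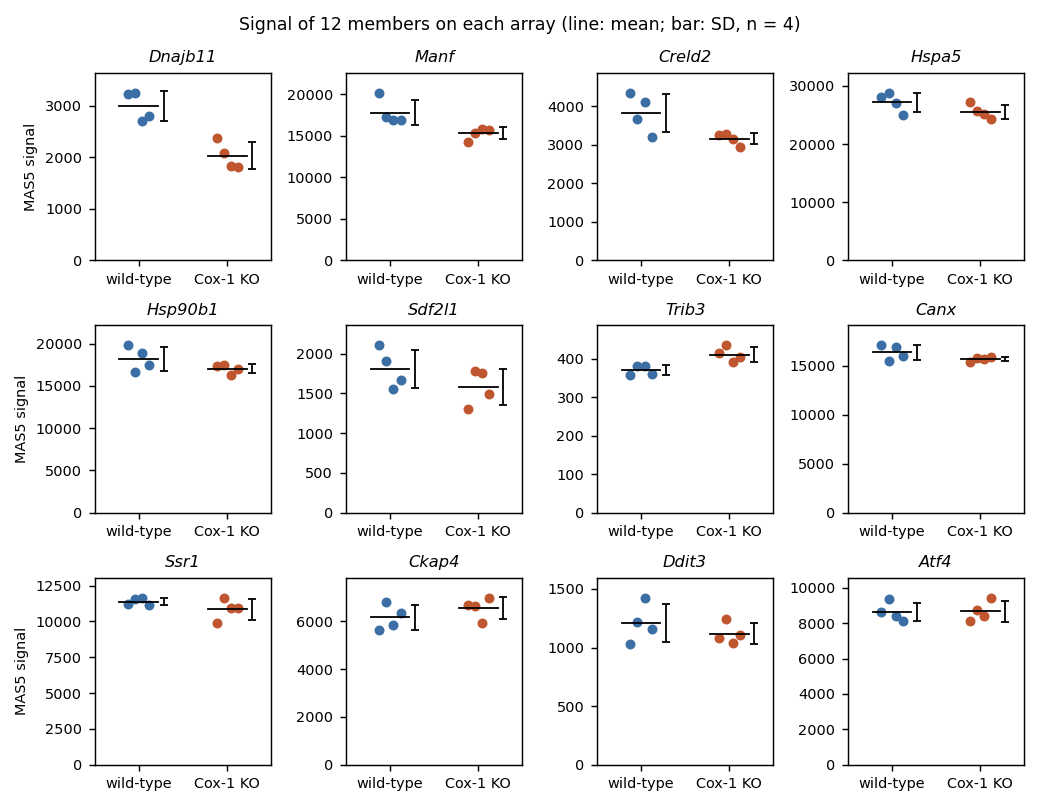
MAS5 signal (linear axis from 0, arbitrary units) of 12 of the 34 genes on the 4 wild-type (blue) and 4 Cox-1 KO (orange) arrays; points are arrays in replicate order, lines are means and bars are SD. The groups are apart for Dnajb11 and Manf, with Cox-1 KO lower, and for Trib3, with Cox-1 KO at 390 to 434 against 358 to 382.

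The 4 disulfide isomerases, which form and rearrange disulfide bonds, lay between -0.12 and 0.03. Pdia4 (ERp72) had the lowest of these values, -0.12 (standard error 0.107), Pdia6 had -0.07 and Pdia3 (ERp57), the partner of calnexin and calreticulin, had -0.05. P4hb, the founding isomerase and a subunit of prolyl 4-hydroxylase, was higher by 0.03. None had an unadjusted p under 0.05, and the groups of all 4 genes overlapped.

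The 5 genes of the entry route into the ER were all lower in Cox-1 KO, by 0.003 to 0.11 on the log2 scale, and none had an unadjusted p under 0.05. Ssr1, a subunit of the translocon-associated protein complex, was 11200, 11588, 11603 and 11107 in wild-type and 9864, 11652, 10923 and 10962 in Cox-1 KO. Cox-1 KO replicate 1 was the lowest array and Cox-1 KO replicate 2 the highest, and the difference was -0.07 (standard error 0.0574). Ssr3 of the same complex differed by -0.02, and Sec61a1 and Sec61b, subunits of the channel through which chains enter the ER, by -0.00 and -0.03. Dimmer probe sets were further from 0, at -0.06 to -0.21 for Sec61a1 and -0.16 to -0.30 for Ssr1, none with a limma unadjusted p under 0.05. Sec11c, a catalytic subunit of signal peptidase, had the lowest value at the brightest probe sets, -0.11 (standard error 0.106). Its other probe set gave 0.20 with a standard error of 0.269. That probe set read 109 to 222 in wild-type and 150 to 207 in Cox-1 KO, near the filter on low signal.

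The 6 genes of ER-associated degradation, by which misfolded proteins are returned to the cytosol for the proteasome, lay between -0.11 and 0.04, with a median of -0.03. Edem1, a lectin that selects misfolded glycoproteins, had -0.11 (standard error 0.109) and Herpud1, an organizer of the degradation complex with elements in its promoter shown above, had -0.03. The membrane proteins Derl1 and Derl2 were at -0.02 and -0.03. The ubiquitin ligase Syvn1 (Hrd1) was at 0.01 and its partner Sel1l at 0.04. The adjusted p of these 6 genes was 0.796 or more.

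The 3 stress sensors were at -0.07 for Atf6, -0.04 for Ern1 and -0.02 for Eif2ak3, with standard errors of 0.0743 to 0.0870. The sensors act by proteolysis, mRNA splicing and phosphorylation, none of which the signal of their own transcripts reads. In the branch downstream of PERK, Atf4, the transcription factor whose translation rises when PERK is active, was 8637, 9367, 8422 and 8141 in wild-type and 8100, 8720, 8389 and 9442 in Cox-1 KO, with a difference of 0.00 (standard error 0.0648). Ddit3 (CHOP), a transcription factor linked to cell death under lasting stress, was 1031, 1217, 1425 and 1161 in wild-type and 1081, 1246, 1042 and 1106 in Cox-1 KO. The groups overlapped, with a difference of -0.10 (standard error 0.109). Ppp1r15a (GADD34), which restores translation through a phosphatase, was at 0.03.

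Trib3, a pseudokinase induced through ATF4 and CHOP, was 358, 382, 382 and 361 in wild-type and 414, 434, 390 and 404 in Cox-1 KO. This was the only gene of the 34 with every Cox-1 KO array above every wild-type array. The difference was 0.15 (standard error 0.113, limma unadjusted p = 0.223). Its other probe set also gave 0.15, with overlapping groups. Ckap4, a membrane protein that shapes ER sheets, was 5618, 6821, 5857 and 6361 in wild-type and 6665, 6644, 5920 and 6990 in Cox-1 KO. Its groups overlapped and the difference was 0.09 (standard error 0.0757).

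The probe sets not used above bear on the same genes. For 22 of the 34 genes the deposited values held further probe sets that passed the filter, 45 in all, of which 35 were lower and 10 higher in Cox-1 KO, and 0 passed an adjusted p under 0.05. At an unadjusted p under 0.05, 4 were lower (8.89%, against 5.12% of all probe sets) and 0 were higher (against 3.69% of all probe sets). These 4 belonged to Hsp90b1, Canx, Hyou1 and Atf6. For Canx the probe set read 8287, 8397, 7911 and 8190 in wild-type and 7731, 7544, 7478 and 7678 in Cox-1 KO, without overlap and with a difference of -0.11 (unadjusted p = 0.0458, adjusted p = 0.561). For Atf6 the difference was -0.23 (unadjusted p = 0.0365), beside 0.19 at the remaining probe set.

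The genes with an ERSE in the promoter had a median difference of -0.07, with 7 of 8 lower and a range of -0.27 (Creld2) to 0.01 (Syvn1). The 20 genes with a promoter and no ERSE had a median of -0.03, with 14 of 20 lower. Both ERSE-II genes were lower, Dnajb11 by 0.57 and Herpud1 by 0.03 on the log2 scale.

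The 34 genes were also followed array by array, as the median over the genes of the log2 deviation from the mean of the 8 arrays. This median was 0.07, 0.03, -0.00 and 0.00 in wild-type and -0.05, 0.00, -0.03 and -0.04 in Cox-1 KO, so that Cox-1 KO replicate 2 lay inside the wild-type range. For the 11 chaperones it was 0.15, 0.01, 0.04 and -0.01 in wild-type and -0.05, -0.02, -0.06 and -0.07 in Cox-1 KO, without overlap. The gap was narrow, with wild-type replicate 4 at -0.007 and Cox-1 KO replicate 2 at -0.019. This role also holds all 3 genes with an unadjusted p under 0.05 in limma, and for every other role the groups overlapped. For the 5 measured immunoglobulin and J chain genes the median was 0.00, -1.76, -0.72 and -1.38 in wild-type and 0.90, 0.88, 0.93 and 1.04 in Cox-1 KO. Wild-type replicate 1 thus had the highest value in wild-type of both the chaperones and the immunoglobulin genes, and it was the highest wild-type array for 15 of the 34 genes (44.1%, beside 30.5% of all genes). Between the groups the chaperone median was lower and the immunoglobulin median higher on the Cox-1 KO arrays, while the median of all 34 genes overlapped. Without wild-type replicate 1 the median difference of the 34 genes was -0.02, with 21 lower and 13 higher. With the yolk sac covariate it was -0.035, with 22 lower and 12 higher, beside a median of 0.004 over all genes. Without the covariate these medians were -0.046 and -0.009. In the limma fit with the covariate, 3 of the 34 were lower at an unadjusted p under 0.05, as were 305 of the 12662 genes. The part of epithelium, decidua or yolk sac in these differences was not tested.

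**Figure D4:**
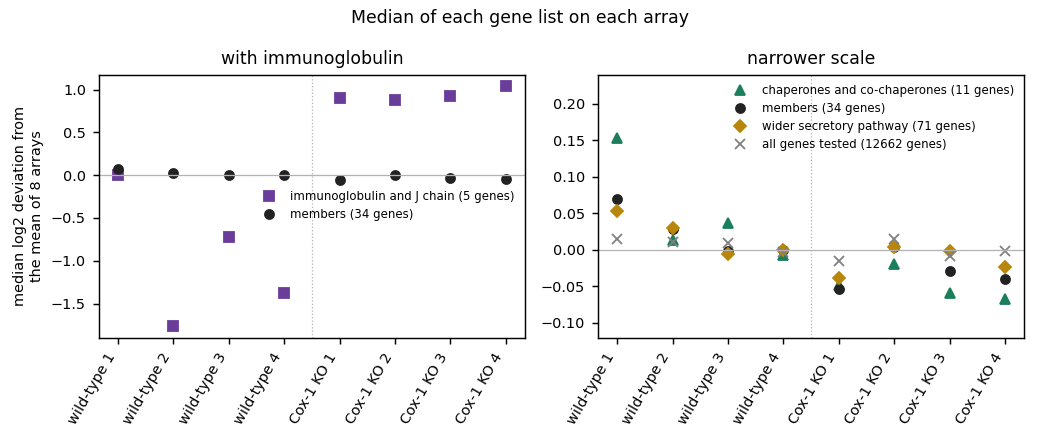
Median log2 deviation from the mean of the 8 arrays, on each array, for gene lists. Left, immunoglobulin and J chain (5 genes, squares) and the 34 genes (members, circles); right, on a narrower scale, the 11 chaperones (triangles), the 34 genes, the wider secretory pathway (71 genes, diamonds) and all genes tested (crosses). The immunoglobulin list runs from -1.76 to 1.04 while the 34 genes stay between -0.05 and 0.07.

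A wider list of 73 secretory pathway genes, without the 34, covered signal recognition, glycosylation, folding, degradation and transport from the ER to the Golgi. Of these 71 were measured, 0 passed an adjusted p under 0.05 with limma (smallest 0.248) and the median difference was -0.04. At an unadjusted p under 0.05, 6 were lower (8.45%, against 4.37% of all genes) and 1 was higher (1.41%, against 4.83%). Nucb2, a calcium-binding protein of the secretory pathway, was 8495, 8797, 9283 and 8419 in wild-type and 6984, 7481, 7356 and 7528 in Cox-1 KO. The groups did not overlap, with a difference of -0.25 (standard error 0.0538, limma adjusted p = 0.248). Sec23b, a coat protein of the vesicles that leave the ER, was 10748, 11854, 9981 and 10162 against 8844, 9023, 9119 and 8853. It was lower without overlap as well, by 0.25 on the log2 scale (difference -0.25, adjusted p = 0.309).

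The other lower genes with an unadjusted p under 0.05 that the rule named were Ufd1, a cofactor of the segregase Vcp (-0.27), Tram1, which helps chains through the translocon (-0.22), and Spcs1, a signal peptidase subunit (-0.19). The higher gene was Creb3l2, an ER-bound transcription factor that is activated like Atf6, at 4350, 4459, 4227 and 4340 in wild-type and 4822, 5033, 4591 and 4838 in Cox-1 KO. It was higher without overlap, by 0.15 (standard error 0.0551, limma adjusted p = 0.530).

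Xbp1, the transcription factor that drives ER expansion in plasma cells, was 26760, 24365, 24296 and 23851 in wild-type and 23197, 25133, 25926 and 23702 in Cox-1 KO. The groups overlapped and the difference was -0.02 (95% interval -0.14 to 0.10), and whether the transcript was spliced was not read here. Other secretory genes that plasma cells express strongly were at 0.09 for Txndc5, -0.00 for Fkbp11 and 0.25 for Derl3 (standard error 0.267), and none had an unadjusted p under 0.05. These 3 and Xbp1 are also among the 12 measured genes of the plasma cell list. Of the 12, 4 were higher with a limma unadjusted p under 0.05 (Mzb1, Pou2af1, Prdm1 and Cd79b; 33.3%, against 4.83% of all genes). At that threshold 0 were lower (against 4.37% of all genes). In the same list Sdc1 was at -0.01 (limma unadjusted p = 0.938), Irf4 at 0.79 (0.122) and Tnfrsf13b at 0.26 (0.119). Of the 5 measured immunoglobulin and J chain genes 3 were higher with an unadjusted p under 0.05 (Jchain, Igha and Iglv1; 60%, against 4.83% of all genes). The other immunoglobulin genes, Ighm (heavy chain of IgM) at 0.22 (unadjusted p = 0.145) and Ighg3 (heavy chain of an IgG) at -0.00 (unadjusted p = 0.990), had overlapping groups. The summed signal of the 5 immunoglobulin and J chain genes was 8861 to 31694 in wild-type and 60041 to 64936 in Cox-1 KO, and that of the 34 genes was 315986 to 331257 and 303971 to 315812.

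**Figure D5:**
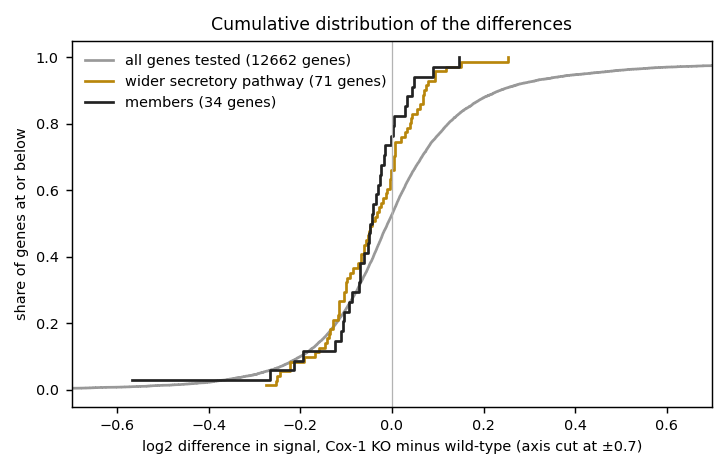
Cumulative share of genes by log2 difference in signal (Cox-1 KO minus wild-type; axis cut at 0.7 either way) for all 12662 genes tested (grey), the wider secretory pathway (71 genes, gold) and the 34 genes (members, black). The 34 genes end at 0.15 on the right, and their median lies at -0.05 beside -0.01 for all genes.

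Targets of ATF4 outside the ER were read from a further list of 18 genes, all of which were measured. Of these 15 were higher and 3 lower in Cox-1 KO (16.7% lower, beside 52.7% of all genes), with a median of 0.05, beside -0.01 over all genes. The median deviation of the list by array was -0.13, 0.04, 0.02 and -0.07 in wild-type and 0.08, 0.07, -0.01 and 0.02 in Cox-1 KO. The groups overlapped, and wild-type replicate 1, set apart above, was the lowest array. With limma 0 passed an adjusted p under 0.05 (smallest 0.541), and at an unadjusted p under 0.05, 1 was higher (5.56%, near the 4.83% of all genes) and 0 were lower (against 4.37%). Phgdh, the first enzyme of serine synthesis, was 887, 735, 730 and 937 in wild-type and 1453, 701, 1220 and 1847 in Cox-1 KO, a difference of 0.59 (standard error 0.242). Psat1, the next enzyme of that pathway, was 1113, 999, 1068 and 1951 in wild-type and 2846, 1032, 2046 and 2158 in Cox-1 KO, a difference of 0.62 (standard error 0.290). Psat1 was highest on the 4 arrays high in Apoa1, wild-type replicate 4 and Cox-1 KO replicates 1, 3 and 4. Phgdh was high on these Cox-1 KO arrays, while wild-type replicate 4 (937) was close to wild-type replicate 1 (887). In the fit with the yolk sac covariate the differences were 0.22 for Phgdh (unadjusted p = 0.312) and 0.02 for Psat1 (unadjusted p = 0.846). The source of these transcripts was not tested.

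The remaining named targets of ATF4 were nearer to 0 or varied more. Ddit4, an inhibitor of mTOR signaling, was at 0.27 (unadjusted p = 0.0510), Vldlr, a lipoprotein receptor, at 0.15 and Slc3a2, the heavy chain of amino acid transporters, at 0.09. Slc7a11, the cystine transporter, was at 0.43 with a standard error of 0.307, at signals of 68 to 101 in wild-type and 77 to 149 in Cox-1 KO that are near the filter on low signal.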

How the data were processed

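Uterine RNA of 8 mice was measured on Affymetrix 430 2.0 arrays. The authors computed signal intensity with Microarray Suite version 5 (MAS5) and scaled each array to 1000; the deposited intensities cover 28000 probe sets, and how these were chosen is not given in the sources used here. Arrays had median signals of 731 to 757, and their number limits the precision.

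Signals under 1 were set to 1 and log2-transformed. Probe sets with 100 or more on at least 4 arrays were kept and 60 controls left out. Genes came from the platform annotation, except Ptgs1, named from the study's additional file. Of the probe sets, 23579 carried 1 symbol, 653 several and 3768 none. The brightest kept probe set of a single gene stood for it. The fit used limma 3.58.1 in R 4.3.3 with a trend, tested on simulated data. Members and lists were chosen with earlier results of these data known. Values on every array were given for the 10 genes with the smallest p and preset genes. The 6 genes with the smallest p of each further list were named, some of them with such values. Other scalings, filters, fits, probe sets, a yolk sac covariate and arrays left out in turn were alternatives.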

Additional observations from a re-analysis of the deposited data

Results flagged for a closer look

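In 102 groups of 4 arrays, of 51 genes, 3 single arrays lay far from the other arrays of their group, where chance alone gives about 1 in 20. The Manf signal of wild-type replicate 1 was 20145, where the remaining arrays of the group read 16928 to 17279. The Psat1 signal of wild-type replicate 4 was 1951, against 999 to 1113, and that array was also the wild-type array with an Apoa1 signal of 50275. The Slc3a2 signal of Cox-1 KO replicate 3 was 6603, against 6266 to 6307.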

How the results depend on the processing

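The lowest adjusted p of the 34 genes over all alternatives was 0.0771, for Dnajb11 with a replicate block. Of 725 values of the 34 genes, 714 kept their direction or were within their error of 0, and 11 reversed. At other probe sets Canx was at 0.10, Hyou1 at -0.51, Atf4 at -0.10, Atf6 at 0.19, Sec11c at 0.20, Ckap4 at -0.029 and -0.13 and Derl1 at 0.20. With the mean of all probe sets Hyou1 was at -0.17 and Sec11c at 0.047, and with the yolk sac covariate Sec11c was at 0.043, and the cause was not tested. The count of the 34 genes with an unadjusted p under 0.05 was 3, and 5 after quantile normalization, 5 with the mean of all probe sets and 3 to 5 with single arrays left out. For the wider pathway it was 7, then 11 after quantile normalization and 4 to 9 with single arrays left out, the lowest without Cox-1 KO replicate 1. Over all probe sets 3 passed the adjusted threshold, 10 with 32 added to the signal, 12 with signals under 100 set to 100, 11 after median centring, 6 with a robust fit and 2 to 25 with single arrays left out, the highest without wild-type replicate 1. Same-numbered arrays did not deviate together (correlations -0.254 to 0.219). With 4 arrays a group, some of them high in Apoa1, this cannot tell whether same-numbered mice were handled together. The methods state that balanced groups of samples were processed in parallel. With the replicate block 3 of the 34 had an unadjusted p under 0.05 and the median was -0.05, while Mzb1 lost its call (limma adjusted p = 0.0769), as it did without the trend (0.169), with the mean of all probe sets (0.0800) and with the methods' t-test (0.765).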
